A study of Micropterus salmoides with 45 samples.

Results

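Moderate hypoxia was compared with normal oxygen in the liver of largemouth bass (Micropterus salmoides) at 8 h. The comparison holds the 3 libraries labelled MHG_8h and the 3 labelled CG_8h, 6 of the 45 small RNA libraries of the study, chosen by these labels alone. All 266 listed miRNAs were followed, and all but 51 of them could be tested. The study held fish, 6 months old, for 24 h at 3 oxygen levels and took livers at 0, 4, 8, 12 and 24 h. The moderate group (MHG) was at 3.0 mg/L dissolved oxygen, the control group (CG) at 7.0 mg/L and the severe group (SHG) at 1.2 mg/L, each ± 0.2 mg/L. Oxygen was lowered by nitrogen within 2 h, after which the clock was set to 0 h, so that 8 h of moderate hypoxia follows that step. All fish, controls included, were at 20 °C, were fasted, and came from 3 tanks per oxygen level with 30 fish in each. The labels do not tie a library to a tank, to 1 fish or to a pool of fish, so p-values speak only for the spread among libraries, and tank and oxygen level cannot be told apart.

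A miRNA is a short RNA that guides the silencing complex to messenger RNAs and lowers the protein made from them. It is cut from a hairpin whose 2 arms, named 5p and 3p, can each give a product, and names are written here without the species prefix msa-. In low oxygen, hypoxia-inducible factor switches on genes for glycolysis, red cell formation and vessel growth, and miR-210 is its best known miRNA target in vertebrates. In zebrafish the cluster of miR-462 and miR-731 is also induced by hypoxia. Liver RNA is dominated by hepatocytes, whose hallmark is miR-122, and also carries miRNAs of blood, endothelium, bile duct epithelium and immune cells. miR-122-5p was above 0 in all 6 libraries.

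Values were taken as rpm, reads scaled to the size of the library, a unit inferred from the values. The listed miRNAs of the moderate libraries summed to far less than those of the controls. The listed totals were 778736, 760957 and 848065 rpm in control libraries 1 to 3 and 471494, 403891 and 447853 rpm in moderate libraries 1 to 3. The groups did not overlap. At the other times the listed total varied too. The mean totals of control and moderate groups were 630942 and 643169 rpm at 0 h and 753370 and 474405 rpm at 4 h. At 12 h they were 791537 and 942465 rpm, and at 24 h 333215 and 354710 rpm. The moderate mean was thus lower at 4 and 8 h only. The denominator of the rpm values is not stated in the sources used here, so each value is shown as deposited and as a share of the listed total. In each group most miRNAs have 1 library whose value is the average of the remaining pair. Such a value was treated as not measured in the means and fits and is called averaged below. The listed totals, by which shares are divided, and the summed shares of lists still include averaged values. Averaging befell 83.5% of the miRNAs in the control group and 72.2% in the moderate group, so that most means rest on n = 2. A further 19 and 38 miRNAs had 1 identical value in all 3 libraries and counted as n = 1, and 22 and 28 were listed at 0 throughout the group. The spacing of low values implied 2.02 to 5.57 mega-reads per control library and 1.35 to 1.99 per moderate library, so low values stand on few reads.

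As deposited, nearly every called miRNA was lower in moderate hypoxia, and relative to the listed total rises outnumbered falls. On the rpm scale 73 miRNAs passed an adjusted p of 0.05 (34% of those tested), 1 higher (0.465%) and 72 lower (33.5%), and the median log2 difference was -0.56. Relative to the listed total 11 were called (5.12%), 7 higher (3.26%) and 4 lower (1.86%), with a median of 0.18. With values scaled by the median of ratios, 16 were called (7.44%), 4 higher (1.86%) and 12 lower (5.58%), with a median of -0.06. The split of the calls into higher and lower therefore depended on the scale. Both rpm and share called 5 miRNAs in the same direction (2.33%), which were miR-205-5p, higher, and miR-126b-3p, miR-144-3p, miR-204-5p and miR-462-5p, lower. No miRNA was called in opposite directions, 68 were lower as deposited only and 6 higher as a share only. The measured values of the groups did not overlap for 177 miRNAs on the rpm scale (82.3%) and for 130 as a share (60.5%). Without control library 1 the rpm count was 38 and without moderate library 2 it was 30. The share count was 2 without control library 2, 3 without moderate library 3, and 7 without control library 3, moderate library 1 or moderate library 2. Where the library left out was averaged for a miRNA, no value of that miRNA was removed. Its difference then stayed the same, and its adjusted p moved only through the other miRNAs. This applies to every result below with a library left out.

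**Figure D1:**
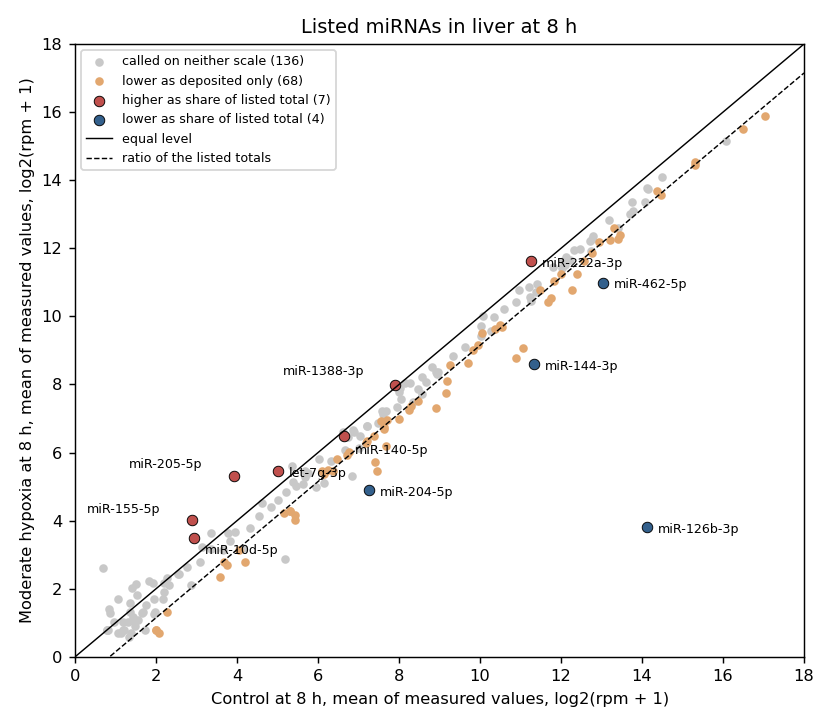
Each point is 1 of the tested miRNAs, with the control mean at 8 h on the horizontal axis and the moderate mean on the vertical axis, both as log2(rpm + 1) of the measured values. Most points lie below the solid line of equal level and close to the dashed line that marks the ratio of the listed totals, and the 11 miRNAs called as a share are named, with miR-126b-3p farthest away.

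The erythrocyte miRNA miR-144-3p was lower in both moderate libraries in which it was measured. In vertebrates miR-144 is made in red cell precursors. miR-144-3p stood at 1769.6, 3399 and 2584 rpm in control libraries 1 to 3, the last averaged, and at 384, 539.5 and 228 rpm in moderate libraries 1 to 3, the first averaged. The groups did not overlap, and the highest moderate value was far below the lowest control value. Its share fell from 0.337% ± 0.155 to 0.0922% ± 0.0585 of the listed total (SD, n = 2 each), a log2 difference of -1.95 (SE 0.42, adjusted p = 0.0115), and the rpm difference was -2.80 (adjusted p = 0.000115). The control share at 8 h was the highest of the control times, and the others ranged from 0.143% to 0.236%. The other moderate times ranged from 0.0804% to 0.306%. The partner arm miR-144-5p, with 1358 and 2422 rpm measured in control and 489 and 393 rpm in moderate hypoxia, fell by 2.05 on the log2 scale as deposited (adjusted p = 0.00177). As a share its difference was -1.19 (adjusted p = 0.123). Without control library 2 or moderate library 3 the share difference of miR-144-3p was -1.46 (adjusted p = 0.148) or -1.25 (adjusted p = 0.18), while the rpm call held without each library. In bulk liver, fewer cells of a type and less of its RNA per cell cannot be told apart.

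miR-204-5p and miR-462-5p fell on both scales, each from its highest level of all 15 groups of oxygen and time. miR-204, best known from the eye and brain, had 151.4, 122.3 and 180.6 rpm in control libraries 1 to 3, the first averaged, and 34.95, 22.5 and 28.7 rpm in moderate libraries 1 to 3, the last averaged. No measured moderate value came near a measured control value. The share of miR-204-5p fell from 0.0187% ± 0.0037 to 0.00649% ± 0.0013 (log2 -1.51, SE 0.35, adjusted p = 0.0172). It was not called as a share without control library 2 (adjusted p = 0.0711), control library 3 or moderate library 2 (both log2 -1.31, adjusted p = 0.139).

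miR-462-5p, of the cluster known for hypoxia in zebrafish, had 6466, 8439 and 10412 rpm in control libraries 1 to 3, the second averaged. In moderate libraries 1 to 3 it had 1674, 2389 and 2031 rpm, the last averaged. The groups did not overlap, and the moderate group was the lower one. Its share fell from 1.03% ± 0.281 to 0.473% ± 0.167 (log2 -1.14, SE 0.32, adjusted p = 0.0445) and its rpm by 2.04 on the log2 scale (adjusted p = 0.000226). The control share at 8 h was rank 1 of 15 groups, and the other control times ranged from 0.463% to 0.702%. The moderate share was rank 10, within the 0.36% to 0.922% of the other moderate times. Without control library 3 or moderate library 1 the share difference was -0.86 (adjusted p = 0.339) or -0.77 (adjusted p = 0.271). Without control library 2 or moderate library 3 the adjusted p was 0.0935 or 0.0839. Both were averaged for miR-462-5p, so leaving them out removed no value of it.

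miR-126b-3p gave the widest difference of all. The miR-126 hairpin lies in an intron of the endothelial gene Egfl7 in mammals and acts in vessel growth. miR-126b-3p was at 13111, 17892 and 22673 rpm in control libraries 1 to 3, the second averaged, and at 19.3, 0 and 19.6 rpm in moderate libraries 1 to 3. By the spacing of values these moderate levels stand on 26, 0 and 39 reads. The log2 share difference was -10.75 (SE 0.99, adjusted p = 4.1e-07), and the call held without each library. Its size did not: it was -8.93 without moderate library 2, the library at 0, -11.6 without moderate library 1 and -11.7 without moderate library 3. The 5p arm of the same hairpin was not called, and miR-126b-5p made up 0.826% of the listed total in control and 0.853% in moderate hypoxia (log2 0.08, adjusted p = 0.936). The close relative miR-126a-3p, at 13420 rpm in all 3 control libraries and 8292 rpm in moderate hypoxia, had a share difference of 0.14 (adjusted p = 0.886). Levels near 0 also occurred in control fish, where miR-126b-3p was at 0.00163%, 0.00814% and 0.00183% of the listed total at 4, 12 and 24 h, while the other moderate times had 1.25% to 2.97%. How reads were assigned to miR-126a and miR-126b is not stated in the sources used here, and its part in this difference was not tested.

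**Figure D2:**
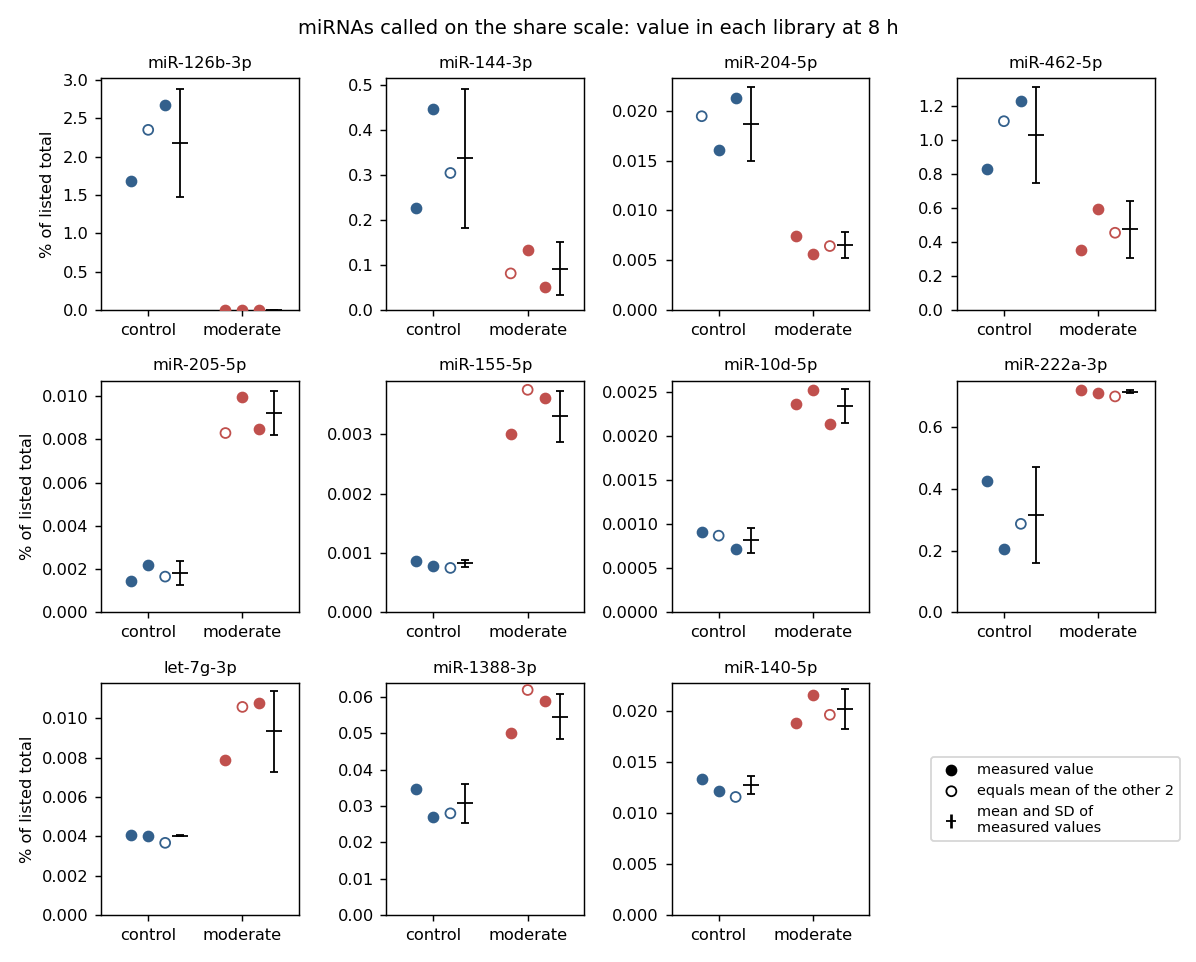
Each panel shows 1 of the 11 miRNAs called as a share of the listed total, with the percentage of the listed total in each control (blue) and moderate (red) library at 8 h. Filled points are measured values, open points are averaged values, and the bar gives the mean and SD of the measured values. In all 11 panels the control and moderate points are apart, but these miRNAs were picked by calls on the same values. Over all tested miRNAs the measured shares did not overlap for 60.5%.

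Among the rises, miR-205-5p was called on both scales. miR-205 is a miRNA of skin and other lining epithelia. It stood at 11.3, 16.8 and 14.04 rpm in control libraries 1 to 3, the last averaged, and at 39.1, 40.2 and 38.0 rpm in moderate libraries 1 to 3, the first averaged. The measured moderate values (n = 2) lay close together and above the measured control values. These values stand on 30 and 34 reads in control and 55 and 75 in moderate hypoxia. The share of miR-205-5p rose 5.04-fold (log2 2.30, SE 0.59, adjusted p = 0.0301) and its rpm 2.78-fold (log2 1.44, adjusted p = 0.0403), and the moderate group at 8 h had the highest share of all 15 groups. As a share it was not called without control library 1 (adjusted p = 0.158), control library 2 (0.0935), moderate library 2 (0.151) or moderate library 3 (0.129). As rpm it was not called without control library 1 (log2 1.17, adjusted p = 0.203), control library 2 (0.062), moderate library 1 (0.05), moderate library 2 (0.14) or moderate library 3 (0.0962). Moderate library 1 was averaged for miR-205-5p, so leaving it out removed no value of this miRNA.

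miR-155-5p rose as a share. In mammals it is induced when immune cells are activated. Its values were 6.76, 5.94 and 6.35 rpm in control libraries 1 to 3, the last averaged, and 14.1, 15.1 and 16.1 rpm in moderate libraries 1 to 3, the second averaged. Both measured moderate values were above both measured control values, on 18 and 12 reads in control and 19 and 32 in moderate hypoxia. The log2 share difference was 1.87 (SE 0.50, adjusted p = 0.0301), and the rpm difference of 1.13 missed the threshold (adjusted p = 0.0522). The share call was lost without control library 1 (adjusted p = 0.0867), control library 2 (0.148), moderate library 1 (0.0734) or moderate library 3 (0.178).

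miR-222a-3p and miR-10d-5p rose as a share by 2.27-fold and 2.86-fold. miR-222 acts with miR-221 in endothelium and in cell cycle control through the inhibitor p27 in mammals. miR-222a-3p stood at 3304, 1554 and 2429 rpm in control libraries 1 to 3, the last averaged, and at 3388, 2867 and 3128 rpm in moderate libraries 1 to 3, the last averaged. On the rpm scale the groups overlapped (log2 0.46, adjusted p = 0.285), and they parted only as a share, at 0.314% ± 0.156 against 0.714% ± 0.0062 (log2 1.28, SE 0.34, adjusted p = 0.0301). Its share difference was 0.75 without control library 2 (adjusted p = 0.383), and the call was also lost without moderate library 1 (0.0948), 2 (0.138) or 3 (0.0679). Moderate library 3 was averaged for miR-222a-3p, so leaving it out removed no value of this miRNA. miR-10 genes lie in the Hox clusters. miR-10d-5p had 7.13, 6.62 and 6.10 rpm in control libraries 1 to 3, the second averaged, and 11.2, 10.2 and 9.57 rpm in moderate libraries 1 to 3, all measured. The moderate values were all higher, on 14 to 19 reads each. Its log2 share difference was 1.42 (SE 0.32, adjusted p = 0.0115), the rpm difference 0.57 (adjusted p = 0.131), and the call was lost without control library 3 (adjusted p = 0.121).

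let-7g-3p, the minor arm of a let-7 hairpin, was the let-7 member that rose. It had 31.5, 30.7 and 31.1 rpm in control libraries 1 to 3, the last averaged, and 37.2, 42.8 and 48.4 rpm in moderate libraries 1 to 3, the second averaged. The groups did not overlap on either scale. Its share rose 2.31-fold (log2 1.17, SE 0.25, adjusted p = 0.0115), while the rpm difference was 0.43 (adjusted p = 0.189). The share call was lost without control library 2 (adjusted p = 0.0872) or moderate library 3 (0.129).

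The last calls, miR-1388-3p and miR-140-5p, fall outside the rule for naming and were chosen after their values were seen. miR-1388-3p had 269, 205.4 and 237 rpm in control libraries 1 to 3, the last averaged, and 236, 250.2 and 264 rpm in moderate libraries 1 to 3, the second averaged. The rpm values overlapped (log2 0.09) and the shares did not (log2 0.83, SE 0.21, adjusted p = 0.0301). miR-140-5p, a cartilage miRNA, had 104, 92.1 and 98.0 rpm in control libraries 1 to 3, the last averaged, and 88.5, 87.1 and 87.8 rpm in moderate libraries 1 to 3, the last averaged. It was not called as deposited (log2 -0.15, adjusted p = 0.527) and was higher as a share (log2 0.66, SE 0.19, adjusted p = 0.0445). Only the sign of its estimate turned with the scale. The call of miR-1388-3p was lost without control library 2 (adjusted p = 0.27), moderate library 1 (0.0563) or moderate library 3 (0.202), and that of miR-140-5p without any 1 of the 6 libraries (0.0621 to 0.27). Control library 3 and moderate library 3 were averaged for miR-140-5p, so leaving them out removed no value of it.

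**Figure D3:**
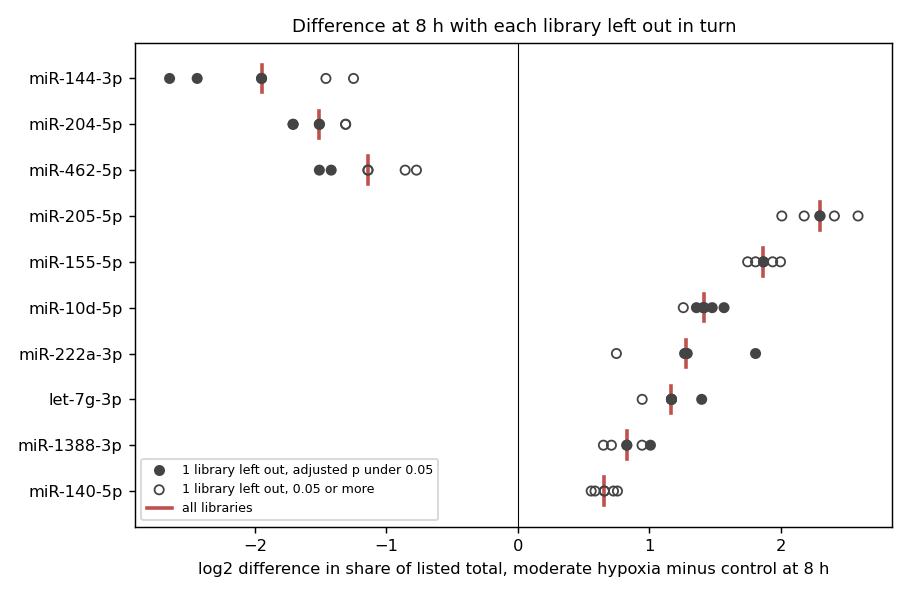
Log2 difference in the share of the listed total, moderate minus control at 8 h, for the called miRNAs except miR-126b-3p, with each of the 6 libraries left out in turn. Red ticks use all libraries, filled points had an adjusted p under 0.05 and open points did not. No point crosses 0, but these miRNAs were picked by calls on the same values. Leaving out a library averaged for a miRNA removes no value of it, so its point lies on the red tick.

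The hypoxia miRNA miR-210 was lower as deposited and was not called as a share. miR-210-3p had 289, 219.8 and 255 rpm in control libraries 1 to 3, the last averaged, and 126.8, 107.5 and 146.1 rpm in moderate libraries 1 to 3, the first averaged. No measured moderate value reached the controls on the rpm scale (log2 -1.003, adjusted p = 0.0289). The shares of 0.033% and 0.0296% overlapped (log2 -0.15, 95% interval -0.82 to 0.51, adjusted p = 0.838). That interval rests on n = 2 measured values in each group. It would be too narrow if outlying values had been replaced, so it does not exclude a rise of more than 0.51 on the log2 scale. miR-210-5p, at 272 and 136 rpm measured in control and 89.97 and 53.7 rpm in moderate hypoxia, had an rpm difference of -1.45 (adjusted p = 0.00447). Its share difference was -0.64 (95% interval -1.32 to 0.03, adjusted p = 0.298). Without control library 1 or moderate library 2 the rpm call was lost for miR-210-3p (-0.81, adjusted p = 0.182, and -0.78, 0.183) and for miR-210-5p (-0.95, 0.101, and -1.09, 0.0738). miR-731-5p was listed at 0 in all 6 libraries. Of the 16 tested members of the hypoxia-associated list (miR-210, miR-462, miR-21, miR-26, miR-103, miR-107 and miR-181 among them), 6 were lower as deposited and 1, miR-462-5p, as a share, with none higher on either scale. Over all tested miRNAs 33.5% were lower as deposited and 1.86% as a share, so the count as deposited is near that background. Their median log2 difference was -0.84 as deposited and 0.03 as a share, against -0.56 and 0.18 over all tested miRNAs.

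The abundant miRNAs of the liver mostly fell as deposited and were not called as shares. miR-122-5p, the hepatocyte miRNA, had 11135, 11273 and 10998 rpm in control libraries 1 to 3, the first averaged, and 6568, 5406 and 4244 rpm in moderate libraries 1 to 3, the second averaged. Both measured moderate values were lower (rpm log2 -1.08, adjusted p = 0.0113), and the shares of 1.39% and 1.17% overlapped (log2 -0.27, adjusted p = 0.674). Without moderate library 3 the rpm difference was -0.76 (adjusted p = 0.109). Its minor arm miR-122-3p was at 110 and 119 rpm measured in control and 113 and 86.4 rpm in moderate hypoxia, with a share difference of 0.61 (95% interval 0.07 to 1.15, adjusted p = 0.228). The largest single part of the libraries, miR-26a-5p, fell from 111171 and 158399 rpm measured in control to 68055 and 51854 rpm (log2 -1.16, adjusted p = 0.000267), and its share was 16.5% against 13.6% (log2 -0.26, adjusted p = 0.358). miR-181a-5p (rpm log2 -1.02, adjusted p = 0.00125), let-7a-5p (-0.79, 0.00497) and miR-22a-3p (-0.85, 0.0217) fell as deposited too. Their shares differed by -0.13, 0.03 and 0.01 log2 and were not called. The rpm call of miR-181a-5p was lost without moderate library 2 (-0.69, adjusted p = 0.0503), and that of miR-22a-3p without control library 1 (0.133) or moderate library 2 (0.119). miR-192-5p, abundant in liver and gut, stood at 79318 and 58971 rpm measured in control and 40015 and 33288 rpm in moderate hypoxia and was not called on either scale (rpm log2 -0.91, adjusted p = 0.247). Of the 15 liver-enriched miRNAs, all tested, 8 were lower as deposited, against 33.5% of all tested miRNAs, and 0 were called as a share, against 5.12%, in limma, where 37 of all miRNAs tested had an unadjusted p under 0.05. Their summed share was 18.4% to 21.8% in control libraries and 19.4% to 20.2% in moderate ones.

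In the families and pathway lists that follow, every call as deposited was a fall, and few members were called as a share. Over all tested miRNAs 33.5% were lower as deposited and 5.12% were called as a share, and nothing particular to a list is read from its count. Of 17 tested let-7 members, regulators of growth and metabolism, 5 were lower as deposited and 1, let-7g-3p, higher as a share, with medians of -0.57 and 0.18. Of 17 members of the miR-17 to miR-92 clusters, which drive proliferation in mammals, 5 were lower as deposited and none was called as a share (medians -0.59 and 0.13). The miR-30 family had 5 of 7 lower as deposited, among them miR-30a-3p at 150 and 185 rpm measured in control and 58.0 and 45.02 rpm in moderate hypoxia (log2 -1.69, adjusted p = 0.000806; share -0.80, adjusted p = 0.123). Of the 8 members of miR-99, miR-100 and miR-125, 4 were lower as deposited, with miR-99-5p at 3929 and 5982 rpm measured in control and 1697 and 1780 rpm in moderate hypoxia (log2 -1.48, adjusted p = 0.000533; share -0.58, adjusted p = 0.256). Both calls held without each library. Among 7 tested miR-10 and miR-196 members, 2 were lower as deposited and miR-10d-5p was higher as a share. The lipid and glucose list had 1 of 15 lower as deposited, the p53 and apoptosis list 2 of 12, the clusters of miR-23, miR-24 and miR-27 had 2 of 13 and the miR-181 family 1 of 4, with none called as a share in these 4 lists. In the inflammation list 3 of 13 were lower as deposited and miR-155-5p was higher as a share. In the endothelium and angiogenesis list 4 of 12 were lower as deposited, while as a share miR-126b-3p was lower and miR-222a-3p higher. Neither tested member of the miR-183 cluster was called on either scale.

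**Figure D4:**
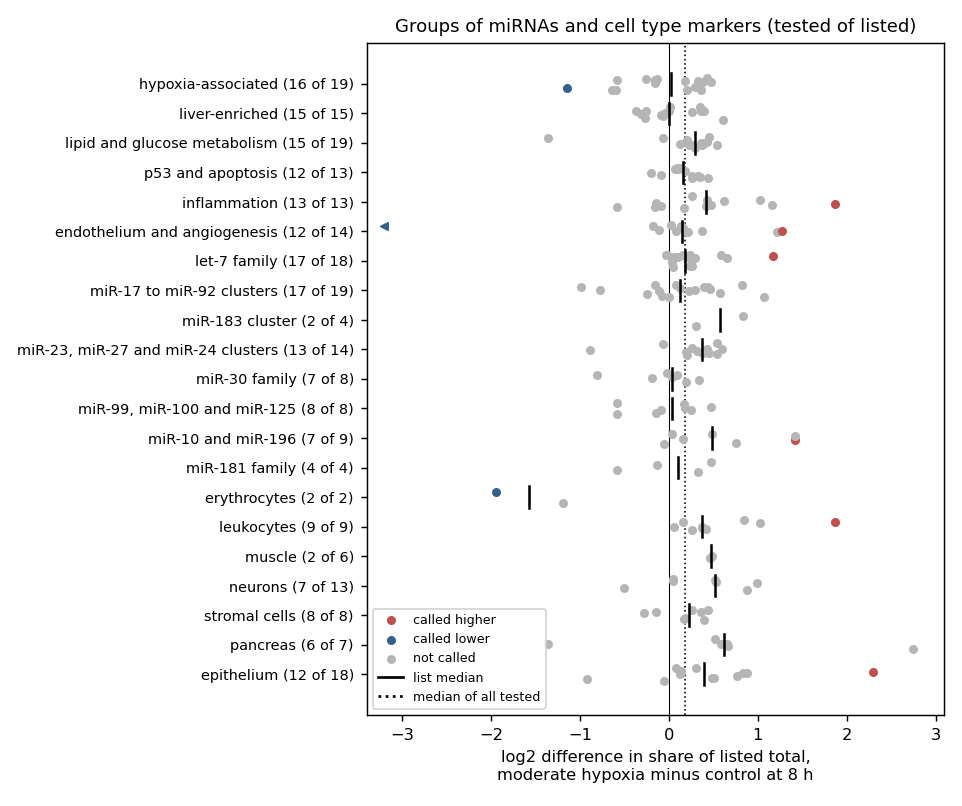
Log2 difference in the share of the listed total, moderate minus control at 8 h, for the tested members of each list of miRNAs, with the list median as a black bar and the median of all tested miRNAs, 0.18, as a dotted line. miR-126b-3p is drawn as a triangle at the left edge because its value of -10.75 lies off the axis; the erythrocyte list has the lowest median, -1.57.

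Markers of other cell types were read in the same way, against 33.5% lower as deposited and 5.12% called as a share over all tested miRNAs. The erythrocyte list held both arms of miR-144, which come from 1 hairpin, and both were lower as deposited, 1 of them as a share too. Their summed share was 0.402% to 0.765% in control libraries and 0.139% to 0.255% in moderate ones. Leukocyte markers had 0 of 9 called as deposited and 1, miR-155-5p, higher as a share, with sums of 1.19% to 1.28% in control and 1.39% to 1.66% in moderate hypoxia. Among the 9, miR-142a-3p and miR-142b-3p carry the same values, 1 measurement that is counted under both names. Epithelial markers had miR-205-5p higher on both scales and 3 of 12 lower as deposited, with sums of 0.267% to 0.305% and 0.305% to 0.333%. Stromal markers had 4 of 8 lower as deposited, neuronal markers 1 of 7, and pancreas (6 tested) and muscle (2 tested) markers none, with 0 called as a share in these 4 lists. The muscle marker miR-1-3p was listed at 0 in control and at 0.73 rpm in moderate hypoxia, and the neuronal marker miR-124-3p was at 0 in all 6 libraries. The summed share of pancreas markers was 0.0243% to 0.0286% in control and 0.0205% to 0.0615% in moderate hypoxia. The part of these cell types in the other differences was not tested.

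The arms of each hairpin were set side by side. Both arms were tested for 68 hairpins, and for 11 of them both were lower as deposited, for 18 only the 5p arm was and for 13 only the 3p arm was. Neither arm was called lower for 26. Lower calls as deposited made up 33.5% of all tested miRNAs, and whether the arms of a hairpin go together was not tested. The gap between the arms was widest for miR-126b (10.43 on the log2 scale), followed by miR-7a and miR-460. For miR-460 the 5p arm had 338 and 225 rpm measured in control and 266 and 264 rpm in moderate hypoxia (log2 -0.06, adjusted p = 0.931). Its 3p arm had 511 and 626 rpm measured in control and 180.8 and 248.8 rpm in moderate hypoxia and was lower (log2 -1.41, adjusted p = 0.00497), with a share difference of -0.48 (adjusted p = 0.45). The rpm call of miR-460-3p was lost without moderate library 2 (-1.18, adjusted p = 0.0568). The difference between the arms was not tested. miR-7a and miR-460 were singled out after their values were seen.

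A few miRNAs were listed at 0 throughout 1 of the groups and could not be tested. miR-15a-5p, of the miR-15 and miR-16 family that restrains cell survival genes, was at 390, 529 and 669 rpm in control libraries 1 to 3, the second averaged, and at 0 in moderate hypoxia at 8 h. It was also listed at 0 in moderate hypoxia at 4, 12 and 24 h, and in control at 0 h, against 551 rpm in moderate hypoxia at 0 h and 276 to 464 rpm at the other control times. miR-458-5p had 1 value, 91.4 rpm, in all control libraries at 8 h and was listed at 0 in moderate hypoxia. At the other times it was also at 0 in control at 4 h, and in moderate hypoxia it was at 0 at 0, 4 and 24 h and at 95.3 rpm at 12 h. In the other direction miR-93-3p was listed at 0 in control and at 206.2, 191.7 and 220.6 rpm in moderate libraries 1 to 3, the first averaged. In control it had 176.9, 374.6, 248.9 and 201.4 rpm at 0, 4, 12 and 24 h, so among the control times only 8 h was at 0, and in moderate hypoxia it was listed at 0 at 0 h. miR-137-3p was listed at 0 in control and had 1 value, 16.6 rpm, in all moderate libraries. At the other times it was at 0 to 3.39 rpm in control and at 8.72 to 86.5 rpm in moderate hypoxia.

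The difference at 8 h was then set against the mean of the moderate minus control differences at 0, 4, 12 and 24 h, as shares. It differed for 9 of 197 miRNAs tested (4.57%), 7 higher at 8 h (3.55%) and 2 lower (1.02%). On the rpm scale 49 did (24.9%), 2 higher (1.02%) and 47 lower (23.9%). miR-144-3p was lower by 1.95 at 8 h, against differences of 0.50, 0.43, 0.10 and -1.11 at 0, 4, 12 and 24 h (interaction -1.93, adjusted p = 0.0174). let-7g-3p was higher by 1.17, against -0.46, 0.07, -0.56 and 0.63 (interaction 1.25, adjusted p = 0.0104). miR-19b-3p, of the miR-17 to miR-92 clusters, had 0.58 at 8 h, not called on its own (adjusted p = 0.104), against -0.36, 0.15, -0.92 and -0.46 (interaction 0.97, adjusted p = 0.0104). On the rpm scale the interaction of miR-144-3p was called (-2.75, adjusted p = 0.000577), and those of let-7g-3p (0.59, 0.121) and miR-19b-3p (0.13, 0.697) were not. Single libraries carried some of these calls. The interaction of miR-144-3p was -1.44 without control library 2 (adjusted p = 0.19) and -1.23 without moderate library 3 (0.24), that of let-7g-3p was not called without control library 2 (0.0578) or moderate library 3 (0.108), and that of miR-19b-3p without control library 3 (0.0575) or moderate library 3 (0.108). The interactions of miR-204-5p (-1.25, adjusted p = 0.0925), miR-462-5p (-1.02, 0.122), miR-205-5p (1.55, 0.227) and miR-155-5p (0.98, 0.369) missed the threshold. The count was 3 without control library 2, 2 without moderate library 3 and 6 without control library 3.

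**Figure D5:**
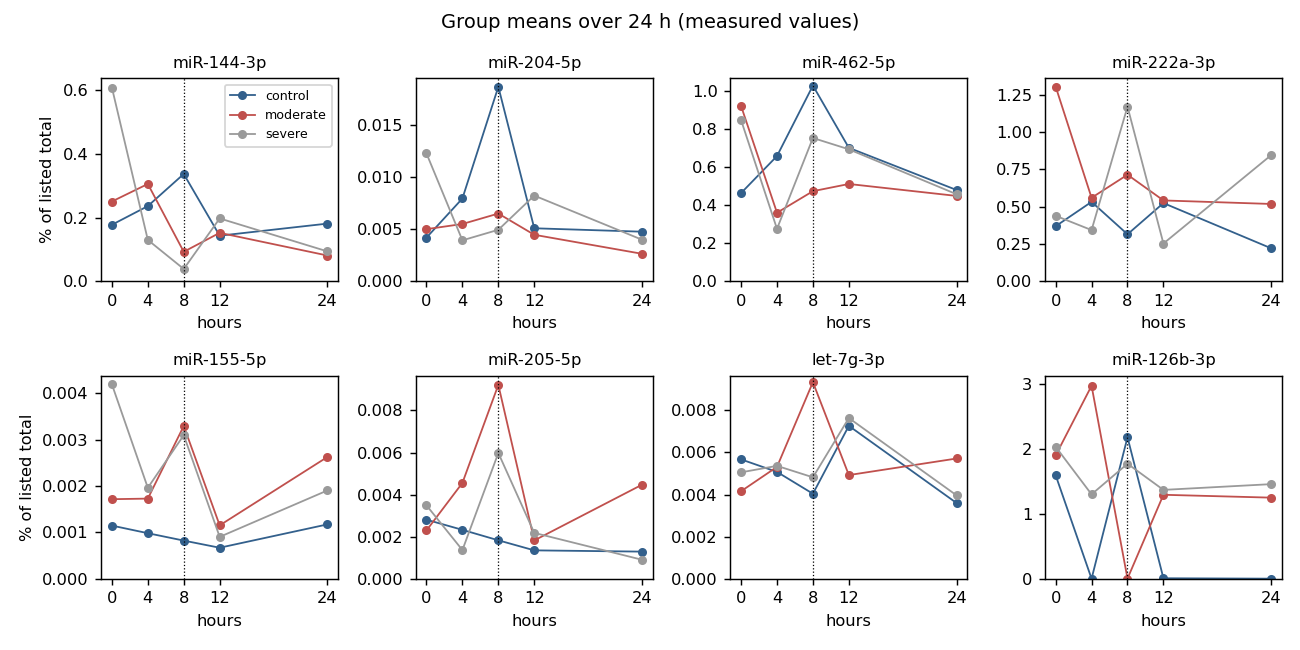
Mean share of the listed total over the measured values of each group, in percent, against hours, for 8 miRNAs called at 8 h, in control (blue), moderate (red) and severe hypoxia (grey), with the dotted line at 8 h. The control means of miR-204-5p and miR-462-5p peak at 8 h, the moderate mean of miR-205-5p is highest at 8 h, and miR-126b-3p is near 0 in moderate hypoxia at 8 h and in some control groups.

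Severe and moderate hypoxia at 8 h were compared directly, without the shared control. Relative to the listed total 25 miRNAs were called (11.6%), 10 higher in severe hypoxia (4.65%) and 15 lower (6.98%). The 15 count miR-142a-3p and miR-142b-3p separately, which had the same difference (-1.05, adjusted p = 0.000716). As deposited 24 were called (11.2%), 19 higher (8.84%) and 5 lower (2.33%). Of 4 listed members of the miR-183 cluster 2 were tested, and both were higher in severe hypoxia. The cluster is known from sensory organs and epithelia. miR-182-5p had 433, 490 and 461.5 rpm in severe libraries 1 to 3, the last averaged, against 37.2 and 28.3 rpm measured in moderate hypoxia (log2 3.43, SE 0.29, adjusted p = 2.05e-08), and miR-183-5p was higher by 1.89 (adjusted p = 0.000359). miR-10a-5p, at 2706 against 147.2 rpm (log2 3.83, adjusted p = 0.000359), and miR-7a-5p, at 83.4 against 4.41 rpm (3.73, 8.2e-07), were also higher in severe hypoxia. Neither miR-10a-5p nor miR-7a-5p nor these cluster members were called between moderate hypoxia and control. The 3p arms of the miR-126 pair went opposite ways, with miR-126a-3p at 8292 rpm in moderate and 18.9 rpm in severe hypoxia (log2 -9.15, adjusted p = 1.65e-12), and miR-126b-3p at 13.0 and 10125 rpm (log2 10.49, adjusted p = 2.02e-07). Each of these 6 calls held without each library of the groups compared. With standard errors 2.5 times as wide in limma, miR-182-5p, miR-126a-3p and miR-126b-3p stayed called. Those of miR-10a-5p (adjusted p = 0.719), miR-183-5p (0.719) and miR-7a-5p (0.0675) were lost. The measured moderate values of miR-183-5p stand on 11 and 17 implied reads.

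For the miRNAs called in moderate hypoxia against control, severe hypoxia at 8 h gave values on both sides. miR-1388-3p was lower in severe than in moderate hypoxia (log2 -1.12, adjusted p = 0.000716), as were let-7g-3p (-0.92, 0.00782) and miR-140-5p (-0.66, 0.0224). On the rpm scale miR-1388-3p was called too (-0.81, adjusted p = 0.0165), and let-7g-3p (-0.60, 0.0924) and miR-140-5p (-0.26, 0.413) were not. The call of let-7g-3p was lost without moderate library 3 (-0.70, adjusted p = 0.198), and that of miR-140-5p without moderate library 2 (0.164) or severe library 2 (0.188). No difference was called for miR-144-3p (-1.15, adjusted p = 0.0948), miR-204-5p (-0.38, 0.63), miR-462-5p (0.71, 0.21), miR-205-5p (-0.62, 0.63), miR-155-5p (-0.09, 0.976), miR-222a-3p (0.71, 0.239) or miR-10d-5p (-0.61, 0.266). Against the same control libraries, the shares in severe and moderate hypoxia differed from control by -3.10 and -1.95 for miR-144-3p, by -1.89 and -1.51 for miR-204-5p, by 1.79 and 1.87 for miR-155-5p and by 1.99 and 1.28 for miR-222a-3p. For miR-462-5p they were -0.43 (adjusted p = 0.485) and -1.14. These pairs of values share the control libraries and are not independent. Severe minus control is not given here for the other called miRNAs. For let-7g-3p the severe share at 8 h, 0.00482%, lay closer to the control share of 0.00404% than to the moderate share of 0.00934%. For miR-126b-3p it was 1.77%, against 2.18% in control and 0.00283% in moderate hypoxia.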

How the data were processed

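Small RNA of 15 to 35 nt from liver was sequenced, per the labels' protocols. The series' design text instead speaks of carp and of temperature groups; species and groups follow the title and the sample labels. The deposited values were taken as rpm. The unit was read from the values, whose low values are whole multiples of 1 step per library (94.2% to 100% of them in the 6 libraries, within 0.006 rpm). Trimming, alignment, annotation and build are not stated in the sources used here. Averaged values (within 0.0101 rpm or 0.1%), repeats of identical triplets and groups all at 0 were set to missing in the fits. Listed totals, the denominators of the shares, and list sums kept every deposited value. The rule that made the averaged values is not stated in the sources used here. If outlying values were replaced, p-values would be too small, so counts with standard errors 2.5 times as wide were also computed. The 228 miRNAs that averaged 1 rpm or more over 45 libraries were fitted on log2(value + 1), 15 groups in 1 fit, with limma 3.58.1 in R 4.3.3 (variance trend, two-sided, Benjamini-Hochberg within each comparison); fold changes on this scale understate low miRNAs. A group with n = 1 (6 control and 24 moderate miRNAs tested) takes its spread from the others. Reads behind a value are implied from the step, cover counting only and are not molecules. Called means an adjusted p under 0.05. The plan allowed for counts, and since the values were taken as rpm the limma test was used. The script was tested on simulated data without replaced outlying values. That test does not cover the effect of such replacement on p-values. Named miRNAs, of at least 10 rpm in a group at 8 h, are the 15 largest rises and falls called on both scales, up to 4 called members per list, miR-210, miR-462, miR-731 and miR-122, the 5 most abundant, those at 0 in 1 group, and the 5 most significant of each other test. Members and lists were chosen with earlier results of these data known.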

Additional observations from a re-analysis of the deposited data

Results flagged for a closer look

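For 9 miRNAs the moderate minus control difference at 8 h differed from the mean difference at the other times, by the interaction term of the limma fit on shares of the listed total. Besides miR-144-3p (interaction -1.93), let-7g-3p (1.25) and miR-19b-3p (0.974), described above, these were the following. miR-126b-3p had an interaction of -17.7 (adjusted p = 1.2e-09), with differences of 0.28, 10.9, -10.7, 7.29 and 9.35 at 0, 4, 8, 12 and 24 h. miR-126a-3p had 2.37 (adjusted p = 0.00554), where the difference of -8.36 at 24 h stands against 0.14 at 8 h and -0.49 to -0.03 at the other times. miR-184-3p, known from the lens and cornea, had 2.4 (adjusted p = 0.007), with 0.92 at 8 h and -2.70 to -0.96 at the other times, on levels of 1.87 rpm in control and 2.49 rpm in moderate hypoxia at 8 h. miR-9-3p, a neuronal miRNA, had 1.87 (adjusted p = 0.0153), where the difference of -3.09 at 24 h stands against 0.99 at 8 h and -0.38 to 0.01 at the other times. Its measured values at 8 h rest on 14 to 25 implied reads. miR-19a-3p had 1.04 (adjusted p = 0.0276), with 0.83 at 8 h and -0.62 to 0.75 at the other times. miR-183-5p had 1.34 (adjusted p = 0.0437), with 0.84 at 8 h and -0.75 to -0.17 at the other times.

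The interactions of miR-126b-3p and miR-126a-3p were called without each of the 6 libraries at 8 h. Leaving out a library at 8 h does not touch the other times. There miR-126a-3p had its difference of -8.36 (24 h) and miR-126b-3p those of 10.9, 7.29 and 9.35 (4, 12 and 24 h). At 8 h miR-126a-3p had 1 identical control value, and moderate library 3 was averaged. Only leaving out moderate library 1 or 2 therefore removed a measured value of it. That of miR-184-3p was not called without control library 2 (adjusted p = 0.0578) or moderate library 3 (0.108), that of miR-9-3p without control library 1 (0.0747), control library 2 (0.0578) or moderate library 3 (0.108), and that of miR-19a-3p without control library 2 (0.0876), control library 3 (0.192), moderate library 2 (0.242) or moderate library 3 (0.0744). That of miR-183-5p was not called without control library 1 (0.0504), 2 (0.13) or 3 (0.196) or moderate library 1 (0.109) or 3 (0.148). Moderate library 3 was averaged for miR-19a-3p and control library 1 for miR-183-5p, so leaving these out removed no value of the miRNA. As deposited rather than as shares, the interactions of miR-126b-3p, miR-126a-3p, miR-184-3p and miR-144-3p were called and those of the other 5 were not.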

How the results depend on the processing

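Among the miRNAs named or called as a share, none turned its moderate minus control difference at 8 h while called, within either scale. The split of the share calls did turn. From 7 higher and 4 lower it went to 4 and 5 without control library 1 and to 1 and 2 without moderate library 3. With all 3 deposited values counted as replicates, 160 miRNAs were called as deposited, 99 as a share, 105 for 8 h against the other times and 87 for severe against moderate hypoxia. With standard errors 2.5 times as wide these counts were 1 (miR-126b-3p), 0 (limma; 37 had an unadjusted p under 0.05 before widening), 1 and 3. Groups listed at 0 kept as 1 value of 0 gave 17 as a share and 17 for 8 h against the other times, and the fit on 6 libraries gave 2 as a share (miR-155-5p and miR-10d-5p). The test of 8 h against the other times called 49 on the rpm scale. Leaving out 1 library gave 30 to 67 calls as deposited, 2 to 9 as a share, 2 to 8 for 8 h against the other times and 18 to 25 for severe against moderate hypoxia. Of the 45 named miRNAs called as deposited, 16 were called without each library, and of the 11 called as a share 1 was, miR-126b-3p. A library averaged for a miRNA removed no value of it when left out. Scaling by the median of ratios (16 called as against 11) and a listed total without the 5 most abundant miRNAs (8) changed the split of rises and falls to 4 and 12 and to 3 and 5. Pseudocounts of 0.5 and 10, the filters on low values and the fit without a variance trend kept every count within 1.5 times. Whether replicate numbers pair the samples is not known. The deviations of same-numbered control and moderate libraries 1 to 3 correlated by -0.01, 0.44 and 0.41 over miRNAs. The values of 0.44 and 0.41 were the highest among all pairs of a control and a moderate library. Control library 1 was closest to moderate library 2, at only 0.07, so these correlations do not settle the pairing. With the number as a replicate block 43 were called as deposited, 1 as a share (miR-126b-3p) and 2 for 8 h against the other times. Depth limits miR-155-5p, miR-10d-5p and miR-205-5p, which rest on 12 to 75 implied reads a value. Low depth also applies to miR-204-5p in moderate hypoxia, with 47 and 31 implied reads behind the measured values. let-7g-3p had 84 and 62 in control and 50 and 96 in moderate hypoxia. The cause of these changes was not tested, beyond the fewer values or wider errors that some alternatives use by construction.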
